A study of Mus musculus with 72 samples.

Results

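The genes described here are 33 components of 3 DNA repair pathways, mismatch repair, base excision repair and nucleotide excision repair, measured in the blood of irradiated mice. They were taken from a fixed list. Probes were matched to them by RefSeq transcript, or otherwise by the gene name that the array gives, and all 33 had a probe. Of these, 31 passed the detection filter and were tested among 16098 genes in all: 5 of 5 in mismatch repair, 15 of 16 in base excision repair and 11 of 12 in nucleotide excision repair. The probes of Neil3, a DNA glycosylase, and Ercc6, which acts where repair is coupled to transcription, were flagged as dim or uneven on 62.5% and 44.6% of the arrays of days 1 and 7, above the limit of 25%, and have no result.

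Male C57BL/6 mice aged 8 to 10 weeks received x-rays, or neutrons from a source whose beam also carried gamma rays. Control mice, shared by both radiations, were placed in the holders of the neutron wheel with the beam off. Blood was drawn on day 1, 3 or 7, globin RNA was reduced, and each mouse gave 1 single-colour array. There were 5 Control mice on day 1, 5 on day 3 and 6 on day 7. Neutron 0.25 Gy had 6 mice on day 1, 6 on day 3 and 5 on day 7, and Neutron 1 Gy had 6 on day 1 and 6 on day 7. X-ray 1 Gy had 6 mice on day 1, 5 on day 3 and 5 on day 7, and X-ray 4 Gy had 5 on day 1 and 6 on day 7. A level below is the log2 signal of a gene's brightest probe minus the median of its array, so it is relative to the other genes of that array and is not compared between genes. A gene was called when p was below 0.001 and the false discovery rate over all genes was below 5% in limma.

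Mismatch repair proteins recognise mispaired bases after replication and remove the stretch of new strand that holds them. Base excision repair removes small base lesions through a glycosylase, cuts the backbone, fills the gap and seals it, and shares its later steps with the repair of single-strand breaks. Nucleotide excision repair opens the helix around a bulky lesion, cuts the strand on both sides and replaces it. Blood is a mixture of cells, and in such samples fewer cells of a type and less RNA per cell cannot be told apart.

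The share of spots well above background ran from 40.2% to 67.3% over the 72 arrays. It was lowest after 1 Gy neutrons on day 7, at 40.2% to 50.3%, against 54.3% to 63.9% in the controls of that day. Centring on the spike-in control probes in place of the array median moved the median change of all genes to -2.0 on the log2 scale in that comparison, so every direction given for that group is relative to its arrays' median. A list of hepatocyte transcripts, which blood should hardly carry, was at a mean level of -0.06 to 7.18 in the controls of day 1, 7.99 to 8.93 after 4 Gy x-rays on day 1, and -3.46 to -1.34 in the controls of day 7. A summary table of values that came with the arrays was set aside in all comparisons but 1, because 12 of its 72 columns follow the array of their own sample, 39 follow another array of the same group and 21 follow an array of another group. The names of all 72 array files give the exposure and day of their sample's label.

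The ends of probes behind the main results are shown, as the last 30 bases of each 60-base probe. They are Cul4a and Exo1, which moved in opposite directions on days 1 and 7, Mutyh and Parp1, base excision genes called on both days, and Ung, Tdg and Neil1, whose probes raise doubt. Capitals mark a repeat of TG or a run of A. Positions are those of the array files on mouse build mm9.
Cul4a, chr8:13147326-13147385, plus strand: tcttgcacagagaccgtcttggatctctgc
Exo1, chr1:177838682-177838741, plus strand: tacaagaaaatcttatcaactggagagatg
Mutyh, chr4:116491926-116491985, plus strand: acagacaaacccaacagtactacccagtga
Parp1, chr1:182530581-182530639, plus strand: atctcaaatacctgctgaaactcaagttca
Ung, chr5:114588731-114588790, plus strand: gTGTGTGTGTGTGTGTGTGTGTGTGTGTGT
Tdg, brightest probe, chr19:33748469-33748528, plus strand: tctcattaaataatactgagatttAAAAAA
Tdg, other detected probe, chr10:82113115-82113174, plus strand: ctttctcttacatgtcacatgacaaaaatc
Neil1, brightest probe, chr9:56990628-56990687, minus strand: tcaacattttttaaatccaaagtgaaaacc
Neil1, other detected probe, chr9:56991288-56991347, minus strand: accaggaaacccctacagctcctgagaaag
The Ung probe holds 33 bases of TG repeat, a sequence found in many transcripts, and Ung has no other probe on the array. The brightest Tdg probe lies on chromosome 19, whereas the other detected Tdg probe lies on chromosome 10. The brightest Neil1 probe was designed on a predicted transcript.

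On day 1 the repair genes that were called all fell. With 1 Gy of neutrons 10 of the 31 genes fell and 0 rose, beside 10.7% of all genes that fell and 5.62% that rose. With 4 Gy of x-rays 8 fell and 0 rose, beside 16.6% and 12.8% of all genes, and with quantile normalization 6 fell and 1 rose. With 1 Gy of x-rays 1 fell and 0 rose, beside 3.8% and 2.66%. The median change of the 31 genes was -0.33 with 1 Gy of neutrons, where that of all genes was -0.08, and -0.52 with 4 Gy of x-rays, where that of all genes was -0.09.

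The count after 1 Gy neutrons on day 1 changed with single arrays. It was 5 without control replicate 1 or 2, 4 without control replicate 3 or 5, and 5 without neutron replicate 6. Mlh3, Mutyh, Parp1 and Cul4a were called whichever array was left out. The count after 1 Gy x-rays was 2 without control replicate 4 or x-ray replicate 2 or 6. Within the scan date shared by 4 neutron and 5 control arrays all 10 genes were lower, by -1.82 to -0.75 on the log2 scale. A fit of these arrays called 5 of them (Parp1, Mlh3, Cul4a, Mutyh and Neil1), beside 1359 of all 16098 genes. The 10 had been called on arrays that include those of this date, so their sign there is no independent check. With the hepatocyte level as a covariate 6 genes were called for the neutron group and 4 for 4 Gy x-rays. No share of all genes is given beside these counts or those without single arrays. No x-ray array shared a scan date with the controls of its day. Where the x-ray mice spanned several dates, which excludes 4 Gy on day 7, a fit with the date as a random block kept 11 of 11 calls. Because the controls of each day lay on a single date without x-ray mice of that day, this fit cannot tell date from exposure.

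On day 7 most of the repair genes that were called were lower. The share of the 31 called higher was 6.45% after 1 Gy neutrons and 3.23% after each dose of x-rays. In the group of 1 Gy neutrons 13 of 31 genes were called lower and 2 rose, Mlh3 among the 13 with a signal near background, beside 17.8% of all genes that fell and 18.4% that rose. In the group of 4 Gy x-rays 5 fell and 1 rose, beside 8.12% and 7.72%, and 0 were called with spike-in centring. In the group of 1 Gy x-rays 1 fell and 1 rose, beside 1.1% and 2.64%, and with spike-in centring 3 fell and 0 rose. The median change of the 31 genes after 1 Gy neutrons was -0.66, against -0.05 over all genes. With spike-in centring, 27 of the 31 fell and 0 rose after 1 Gy neutrons, and with centring on the 75th percentile 19 fell and 1 rose. The shares of all genes in this paragraph are those of median centring. Spike-in centring also lowered the median change of all genes after 1 Gy neutrons, so its count there is not particular to the repair genes. A fit that held scan date as a block called 6 genes in the neutron group, only 1 neutron array sharing a date with the controls, and all 15 genes kept their sign for that array. The 15 had been called with that array included, so their sign there is no independent check. For x-rays of 1 and 4 Gy on day 7, scanned on dates that the controls did not share, the date and the exposure cannot be told apart.

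**Figure D1:**
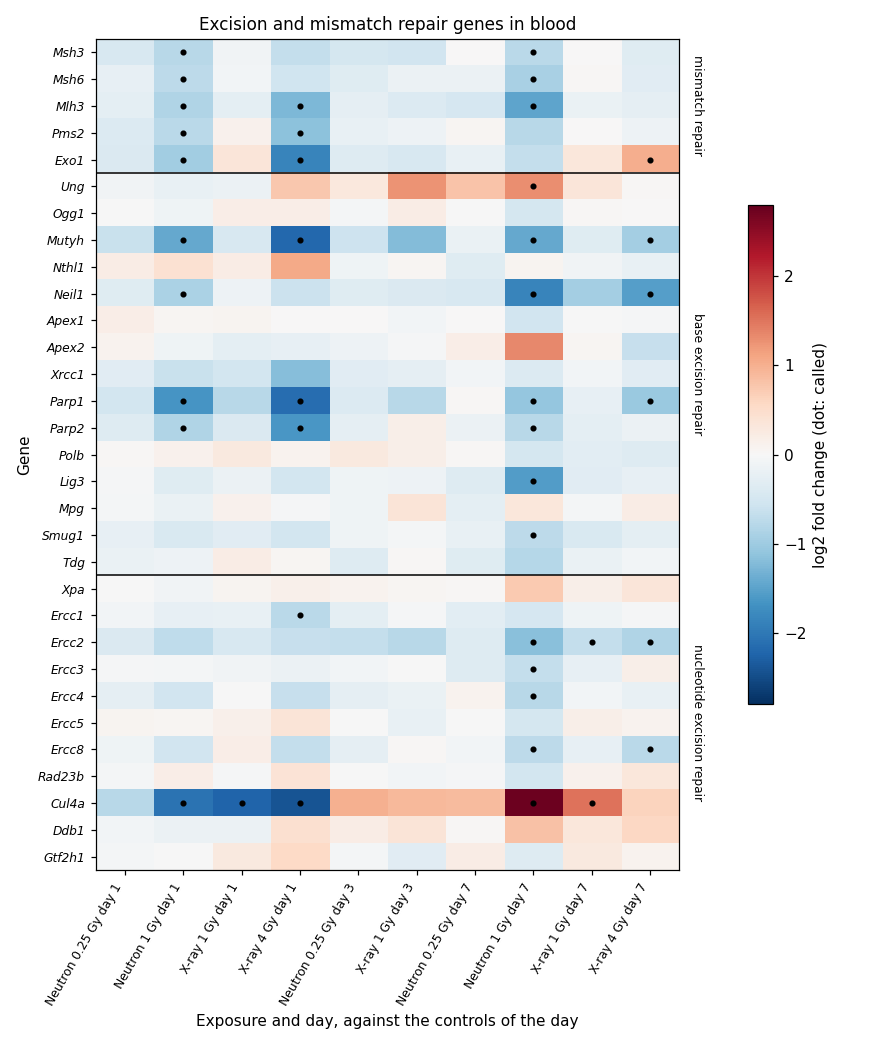
Log2 fold change of the 31 tested repair genes (rows, in 3 pathways) against the controls of the day for each exposure and day (columns), with a dot where the gene was called. Cul4a is blue in the 3 higher-dose columns of day 1 and red on day 7, from -2.41 after 4 Gy x-rays to 2.75 after 1 Gy neutrons, and the 4 columns with no dot are 0.25 Gy neutrons on all days and 1 Gy x-rays on day 3.

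In mismatch repair 5 of 5 genes were called in 1 comparison, several of them depending on single arrays. After 1 Gy neutrons on day 1, Msh3 and Msh6, which pair with another protein to bind mismatches, Mlh3 and Pms2, partners in the complex that nicks the new strand, and Exo1, the exonuclease that removes it, all fell, by 0.74 to 0.97 on the log2 scale. The pathway's median change was -0.79, and 10.7% of all genes fell in that comparison. Mlh3 was called whichever array was left out. The call of Exo1 was lost without any 1 of 9 arrays (-1.14 to -0.87) and in 9 of 13 alternative settings, that of Msh6 without any 1 of 5 (-0.84 to -0.66) and that of Msh3 without control replicate 3 or 5 (-0.91 to -0.73). Here and below such a range covers all arrays left out in turn. After 4 Gy x-rays on day 1 the median was -1.16 and 3 of 5 fell (Mlh3, Pms2 and Exo1), beside 16.6% of all genes. After 1 Gy x-rays on day 1 the median was -0.09 and 0 of 5 were called. Of all genes 3.8% fell and 2.66% rose there. On day 7 after 1 Gy neutrons Msh3 and Msh6 fell, and Mlh3 passed the test on a signal not well above background. In that comparison 17.8% of all genes fell.

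Msh3 stood at 0.48, 0.99, 1.12, 1.14 and 1.21 in the 5 controls of day 1. After 1 Gy neutrons on day 1 it ran from 0.02 through a median of 0.19 to 0.40, below every control. The change was -0.79 ± 0.15 (SE) with an adjusted p of 0.0027. On day 7 Msh3 ran from 0.62 through 0.90 to 1.14 in 6 controls and from -0.27 through 0.23 to 0.31 after 1 Gy neutrons, and the groups did not overlap (-0.76 ± 0.15, adjusted p = 0.00061).

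Pms2 stood at -0.30, 0.10, 0.15, 0.28 and 0.61 in the controls of day 1 and at -1.29, -1.11, -1.03, -1.01 and -0.51 after 4 Gy x-rays. Every x-ray array was below every control (-1.16 ± 0.21, adjusted p = 0.00077). After 1 Gy neutrons on day 1 it ran from -0.76 through -0.59 to -0.31 (-0.76 ± 0.16, adjusted p = 0.0045), a call lost without any 1 of 9 arrays at -0.87 to -0.65. Pms2 on day 7 after 1 Gy neutrons, at -1.16 through -0.77 to -0.29, was not called (adjusted p = 0.003 with p above 0.001).

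Mlh3 stood at -2.96, -2.73, -2.72, -2.69 and -2.37 in the controls of day 1 and ran from -3.75 through -3.65 to -3.24 after 1 Gy neutrons (-0.85 ± 0.15, adjusted p = 0.0021). After 4 Gy x-rays on day 1 it stood at -5.03, -4.01, -3.73, -3.56 and -3.41. The x-ray group was below the controls throughout (-1.25 ± 0.28, adjusted p = 0.003), and the call was lost without any 1 of 7 arrays, at -1.39 to -0.98. This call was also lost in 6 of 13 alternative settings, among them normexp background correction, where the sign turned (0.15). On day 7 the Mlh3 probe was well above background on 0 of the 6 arrays of 1 Gy neutrons, where its measured mean was -4.66 against -3.17 in the controls. That group gives only a bound, and at the level of the dimmest probes measured there no fold can be given. With normexp background correction the sign turned (1.07).

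Exo1 moved one way on day 1 and the other on day 7 after 4 Gy x-rays. It stood at -4.09, -3.41, -3.34, -3.13 and -3.12 in the controls of day 1 and at -6.04, -5.47, -5.11, -4.96 and -4.72 after 4 Gy x-rays, where 0 of the 5 arrays had it well above background. It was at least 2.46-fold lower there (adjusted p = 0.00028), with measured means of -5.26 and -3.42. That bound takes the dimmest probe well above background on each array as the floor. The call was lost in 2 of 12 alternative settings, the hepatocyte covariate and normexp background correction, and with normexp the sign turned (0.39). On day 7 Exo1 ran from -3.39 through -3.01 to -2.14 in the controls and from -2.15 through -1.84 to -1.49 after 4 Gy x-rays. The groups overlapped at their ends, and the gene rose by 1.01 ± 0.23 (adjusted p = 0.0051). The change from day 1 to day 7 in the effect of 4 Gy x-rays passed the test, and its size is not given as a fold because the day 1 x-ray arrays lay near background.

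The rise of Exo1 on day 7 was lost as a call in 8 of 13 alternative settings, among them quantile normalization (1.11) and normexp background correction (0.52), and without any 1 of 9 arrays, where its value ran from 0.90 to 1.15. The direction was up in each of these. A list of genes of dividing cells moved with Exo1 after 4 Gy x-rays. Its mean level had a median of -2.35 in the controls of day 1 and -3.35 after 4 Gy x-rays, and of -1.42 in the controls of day 7 and 0.61 after 4 Gy x-rays. After 1 Gy neutrons on day 7 the list was higher than in the controls, with a median of -0.16. Exo1 was lower there, with a mean of -3.5 against -2.84 in the controls. It was not called, and 1 of 6 neutron arrays had it well above background. The part of dividing cells in the Exo1 result was not tested.

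**Figure D2:**
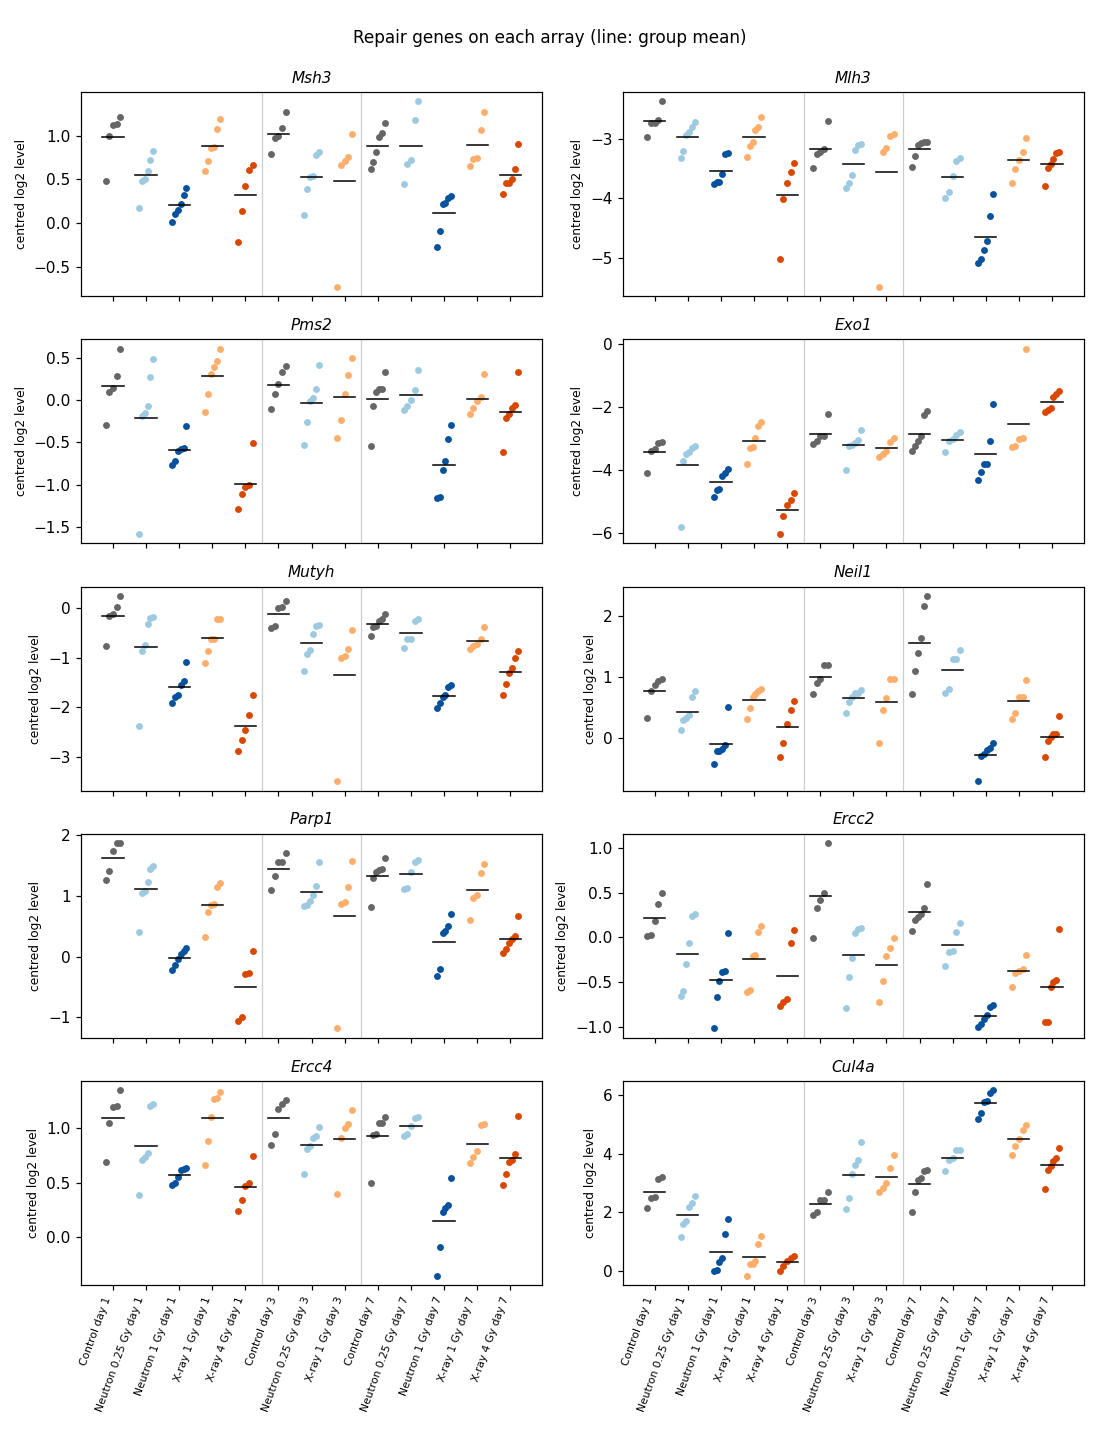
Centred log2 level (vertical axis of each panel) of 10 repair genes on each array, as 1 point per mouse for the 13 groups on the horizontal axis, with the group mean as a line and vertical lines between the days. Parp1 and Mutyh are below all controls after 1 Gy neutrons and 4 Gy x-rays on both days, and 1 array of X-ray 1 Gy on day 3 lies apart from its group in several panels, as at -3.48 for Mutyh.

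In base excision repair the calls against controls were mostly falls. On day 1 after 1 Gy neutrons 4 of 15 fell, beside 10.7% of all genes. After 4 Gy x-rays on that day 3 of 15 fell, beside 16.6%. On day 7 after 1 Gy neutrons 6 of 15 fell and 1 rose, beside 17.8% and 18.4% of all genes. After 4 Gy x-rays on that day 3 of 15 fell, beside 8.12%. Mutyh, the glycosylase that removes adenine paired with oxidised guanine, and Parp1, which senses strand breaks and builds poly(ADP-ribose), fell in all 4 of these comparisons. The glycosylases Ogg1 and Mpg, the endonuclease Apex1, the scaffold Xrcc1, the gap-filling polymerase Polb and Nthl1 were called in none of the comparisons with controls. Their changes after 1 Gy neutrons on day 1 ran from -0.62 (Xrcc1) to 0.44 (Nthl1).

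Parp1 stood at 1.27, 1.41, 1.74, 1.87 and 1.87 in the controls of day 1. After 1 Gy neutrons it ran from -0.21 through 0.00 to 0.14, and after 4 Gy x-rays it stood at -1.06, -0.99, -0.28, -0.27 and 0.09. Both groups lay below every control. The changes were -1.65 ± 0.15 (adjusted p = 6.9e-05) and -2.13 ± 0.25 (adjusted p = 7.1e-05). On day 7 Parp1 ran from 0.81 through 1.41 to 1.63 in the controls, from -0.32 through 0.40 to 0.70 after 1 Gy neutrons and from 0.07 through 0.26 to 0.68 after 4 Gy x-rays. Neither exposed group overlapped the controls (-1.09 ± 0.20 and -1.04 ± 0.15). The fall after 4 Gy x-rays was smaller on day 7 than on day 1, by 1.09 ± 0.28 (adjusted p = 0.0046). That difference was called in 6 of 12 alternative settings and lost without any 1 of 15 arrays, at 0.95 to 1.24.

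Mutyh stood at -0.77, -0.17, -0.14, 0.01 and 0.24 in the controls of day 1. After 1 Gy neutrons it ran from -1.92 through -1.66 to -1.10 and after 4 Gy x-rays it stood at -2.87, -2.65, -2.46, -2.14 and -1.76. The exposed arrays were all below the controls (-1.43 ± 0.20, adjusted p = 0.00064, and -2.21 ± 0.25, adjusted p = 5.8e-05). On day 7 Mutyh ran from -0.57 through -0.32 to -0.14 in the controls, from -2.01 through -1.77 to -1.55 after 1 Gy neutrons and from -1.75 through -1.26 to -0.88 after 4 Gy x-rays. Both groups again lay below the controls (-1.43 ± 0.12 and -0.95 ± 0.15). From day 1 to day 7 the effect of 4 Gy x-rays changed by 1.26 ± 0.28 (adjusted p = 0.0017). The other detected Mutyh probe was lower on day 1 (-1.30 ± 0.22 with neutrons, -2.83 ± 0.35 with 4 Gy of x-rays) and on day 7 with neutrons (-0.97 ± 0.17), all called. On day 7 with 4 Gy of x-rays it changed by -0.38 ± 0.13 and was not called.

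Neil1, a glycosylase for oxidised bases, differed between its probes. The brightest ran from 0.72 through 1.52 to 2.32 in the controls of day 7, from -0.72 through -0.23 to -0.09 after 1 Gy neutrons and from -0.33 through 0.04 to 0.35 after 4 Gy x-rays. By this probe Neil1 fell by 1.85 ± 0.25 and 1.54 ± 0.25, with no overlap. The other detected probe changed by -0.50 ± 0.23 and -0.72 ± 0.17 in the same comparisons, and neither passed the threshold. On day 1 after 1 Gy neutrons both probes were lower, at -0.88 ± 0.18 and -0.72 ± 0.18, of which the first passed, and it passed no longer without any 1 of 9 arrays (-1.01 to -0.82).

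Tdg, the thymine glycosylase, was called in no comparison by its brightest probe, whose position is not that of the other Tdg probe. That probe changed on day 7 by -0.18 ± 0.24 with 1 Gy of x-rays and by -0.07 ± 0.13 with 4 Gy. The other detected probe changed by -2.33 ± 1.05 and -3.05 ± 0.95, neither past the threshold. No direction is given for Tdg.

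**Figure D3:**
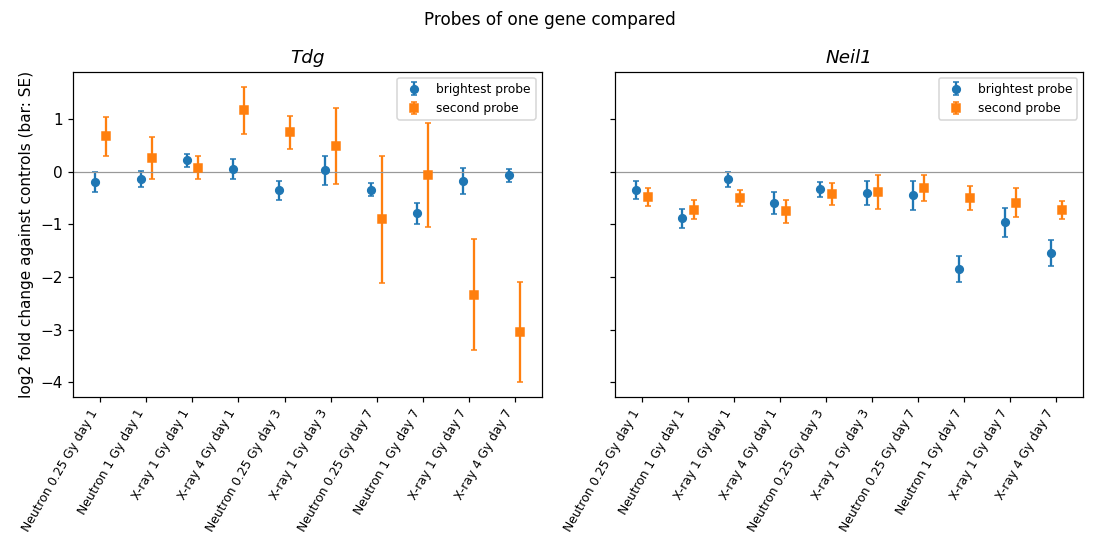
Log2 fold change against the controls of the day (vertical axis, bars are SE) for the brightest probe (circles) and the other detected probe (squares) of Tdg and Neil1, by exposure and day on the horizontal axis. The probes of Tdg part on day 7 after 4 Gy x-rays, at -0.07 and -3.05, and those of Neil1 on day 7 after 1 Gy neutrons, at -1.85 and -0.50.

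Lig3, the ligase that seals the gap, fell by 1.56 ± 0.18 after 1 Gy neutrons on day 7, where 2 of 6 arrays were well above background. It ran from -1.48 through -1.05 to -0.67 in the controls and from -3.11 through -2.70 to -2.16 after neutrons. Parp2, a second break sensor, fell after 1 Gy neutrons on both days (-0.85 ± 0.19 and -0.77 ± 0.18) and after 4 Gy x-rays on day 1 (-1.63 ± 0.21). Smug1, a uracil glycosylase, fell by 0.73 ± 0.16 after 1 Gy neutrons on day 7. Ung, the main uracil glycosylase, rose by 1.29 ± 0.29 there by its repeat-bearing probe, and the sign turned to -0.66 with spike-in centring and to -0.08 with normexp background correction. Normexp also turned the signs on day 7 of Lig3 (0.26), Parp2 (0.21) and Smug1 (0.46). The call of Parp2 was lost without any 1 of 8 arrays on day 1 (-0.94 to -0.74) and any 1 of 11 on day 7 (-0.90 to -0.68), that of Smug1 without any 1 of 9 (-0.85 to -0.67) and that of Ung without any 1 of 6 (1.07 to 1.43).

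In nucleotide excision repair 1 gene carried the largest changes. Cul4a, the scaffold of the ubiquitin ligase that works with Ddb1 at ultraviolet lesions and has other substrates, fell on day 1 and rose on day 7. It stood at 2.16, 2.50, 2.53, 3.14 and 3.20 in the controls of day 1. It ran from -0.01 through 0.38 to 1.76 after 1 Gy neutrons and from -0.15 through 0.30 to 1.21 with 1 Gy of x-rays, and stood at -0.00, 0.19, 0.35, 0.45 and 0.52 after 4 Gy x-rays. The 3 exposed groups lay below all controls.

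The falls of Cul4a on day 1 were -2.07 ± 0.34 (adjusted p = 0.0013), -2.24 ± 0.27 (adjusted p = 0.0013) and -2.41 ± 0.22 (adjusted p = 1.9e-05) in that order. It was the single repair gene called after 1 Gy x-rays on day 1. Its level with neutrons differed from that with 1 Gy of x-rays by 0.17 ± 0.33 and from that with 4 Gy of x-rays by 0.34 ± 0.31, neither called.

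On day 7 Cul4a ran from 2.03 through 3.14 to 3.45 in the controls and from 5.17 through 5.79 to 6.17 after 1 Gy neutrons, and stood at 3.95, 4.26, 4.51, 4.79 and 4.97 after 1 Gy x-rays. Both groups lay above all controls, by 2.75 ± 0.26 (6.71-fold, adjusted p = 2.5e-06) and 1.51 ± 0.27 (2.86-fold, adjusted p = 0.0096). With spike-in centring both stayed above 0, at 0.80 and 0.77, and were not called. After 4 Gy x-rays Cul4a ran from 2.79 through 3.67 to 4.20, overlapped the controls and was not called (0.62 ± 0.27).

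The change of the Cul4a effect from day 1 to day 7 was 4.81 ± 0.43 for 1 Gy neutrons, 3.75 ± 0.40 for 1 Gy x-rays and 3.03 ± 0.37 for 4 Gy x-rays. A list of genes of red cells and their precursors moved with it. Its mean level ran from 2.05 to 3.12 in the controls of day 1, from -0.03 to 2.06 after 1 Gy neutrons, from 0.07 to 1.67 after 1 Gy x-rays and from -1.29 to 0.56 after 4 Gy x-rays. On day 7 it ran from 2.24 to 3.02 in the controls, from 4.80 to 6.04 after 1 Gy neutrons, from 3.57 to 4.56 after 1 Gy x-rays and from 3.47 to 4.62 after 4 Gy x-rays. The part of red cells in the Cul4a result was not tested.

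Ercc2, a helicase of the TFIIH complex that opens the helix, was below the controls on day 7 in 3 exposures. It ran from 0.08 through 0.25 to 0.60 in the controls and from -1.0 through -0.89 to -0.76 after 1 Gy neutrons. It stood at -0.55, -0.40, -0.38, -0.35 and -0.20 after 1 Gy x-rays and ran from -0.95 through -0.53 to 0.09 after 4 Gy x-rays. The neutron and 1 Gy x-ray groups did not overlap the controls, and the 4 Gy x-ray group did. The changes were -1.16 ± 0.12 (adjusted p = 4.4e-06), -0.66 ± 0.12 (adjusted p = 0.01) and -0.84 ± 0.17 (adjusted p = 0.0029).

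Ercc4, part of the nuclease that cuts on the 5′ side of a lesion, ran from 0.50 through 1.00 to 1.11 in the controls of day 7 and from -0.36 through 0.25 to 0.54 after 1 Gy neutrons. The groups overlapped through 1 control array (-0.79 ± 0.17, adjusted p = 0.0013), and the call was lost without any 1 of 6 arrays, at -0.87 to -0.69. Its partner Ercc1 fell after 4 Gy x-rays on day 1 (-0.76 ± 0.16). Ercc3, the other TFIIH helicase, fell after 1 Gy neutrons on day 7 (-0.66 ± 0.15), and Ercc8, of the transcription-coupled branch, fell after 1 Gy neutrons (-0.73 ± 0.14) and 4 Gy x-rays (-0.75 ± 0.15) on day 7. The call of Ercc1 was lost without any 1 of 8 arrays (-0.85 to -0.70), that of Ercc3 without any 1 of 8 (-0.72 to -0.55) and in 7 of 13 settings, with the sign turned by normexp (0.17), and that of Ercc8 with x-rays without any 1 of 3 (-0.85 to -0.66). Xpa, Ercc5, Rad23b, Ddb1 and Gtf2h1 were called in none of the comparisons with controls, and after 1 Gy neutrons on day 7 ran from -0.52 (Rad23b) to 0.82 (Ddb1).

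A list of 8 B cell genes, all 8 well above background in the controls of day 1, was lower in the higher-dose groups. Its mean level ran from 2.14 to 2.91 in the controls of day 1, from -1.25 to 0.72 after 1 Gy neutrons, from 1.29 to 1.90 with 1 Gy of x-rays and from -2.06 to -0.83 with 4 Gy. On day 7 it ran from 2.24 to 2.57 in the controls, from 0.36 to 0.92 after 1 Gy neutrons, from 1.14 to 2.03 after 1 Gy x-rays and from -0.58 to 0.07 after 4 Gy x-rays. T cell genes had medians of 2.95 in the controls of day 1, 2.34 with neutrons of 1 Gy, 3.30 with x-rays of 1 Gy and 1.33 with x-rays of 4 Gy. On day 7 they were 3.16 in the controls, 3.02, 3.05 and 2.71 in that order. The part of these cells in the falls of Parp1, Mutyh and the mismatch repair genes was not tested.

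**Figure D4:**
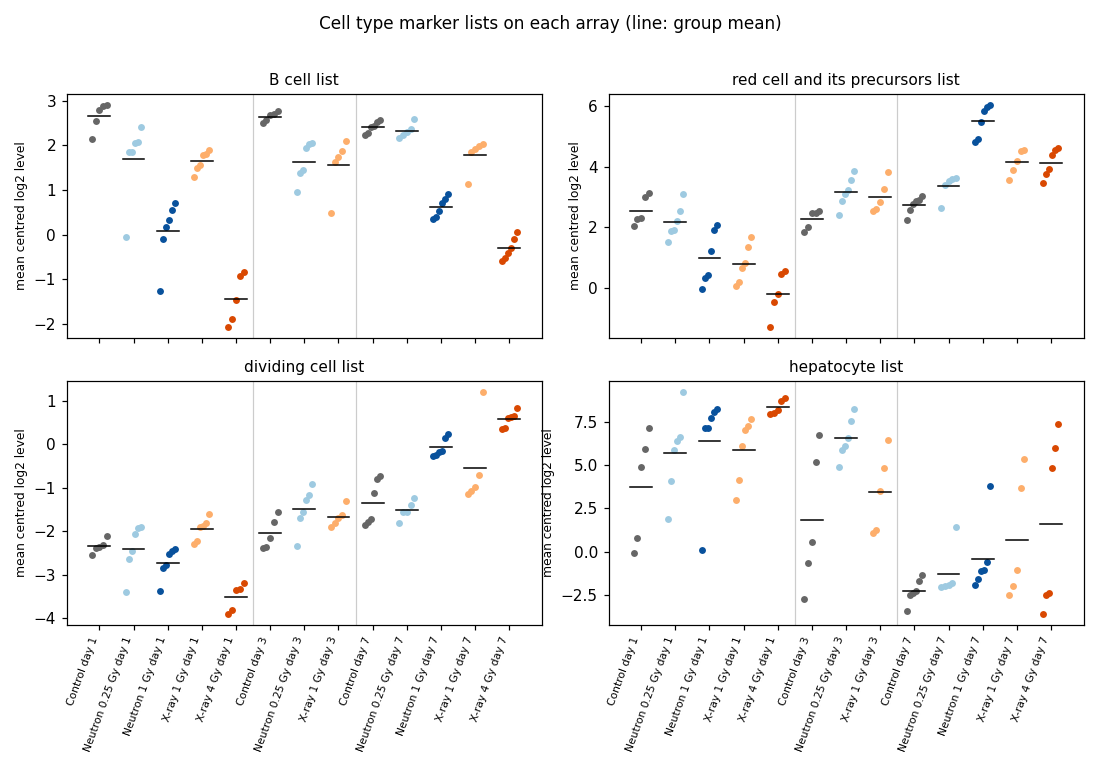
Mean centred log2 level (vertical axes) of 4 lists of cell type genes on each array, 1 point per mouse for the 13 groups on the horizontal axis, with the group mean as a line. The red cell list falls below the day 1 controls and rises above the day 7 controls after the higher doses, with medians of -0.23 after 4 Gy x-rays on day 1 and 5.67 after 1 Gy neutrons on day 7, and the hepatocyte list varies within most groups.

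At equal dose, 1 Gy neutrons and 1 Gy x-rays differed on day 1 in 8 of the 31 genes, all lower after neutrons, beside 8.34% of all genes lower and 1.28% higher. They were Msh3, Msh6, Pms2, Exo1, Mutyh, Neil1, Parp1 and Ercc8, with differences from -1.31 (Exo1) to -0.65 (Msh6). The call of Msh6 was lost without any 1 of 6 arrays (-0.69 to -0.57) and that of Neil1 without any 1 of 9 (-0.86 to -0.67). With scan date as a block 0 of the 8 were called, and within the date shared by 2 neutron and 4 x-ray arrays all 8 were lower after neutrons, by -1.39 to -0.43. The 8 had been called on arrays that include these, so that sign is no independent check. Against 4 Gy x-rays on day 1, 0 of 31 genes differed in limma, beside 0.0311% of all genes called either way. At an unadjusted p under 0.05 there were 9 of the 31, beside 2942 of all 16098 genes. The random variance test also called 0 and the fit with slide as a random block called 6.

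On day 7, 6 genes were lower and 1 was higher after 1 Gy neutrons than after 1 Gy x-rays, beside 6.96% of all genes lower and 13.1% higher. Cul4a was higher (1.23 ± 0.23), and Msh3, Mlh3, Mutyh, Neil1, Lig3 and Rad23b, a lesion-recognition partner, were called lower. The call of Msh3 was lost without any 1 of 8 arrays (-0.84 to -0.68) and that of Rad23b without any 1 of 4 (-0.70 to -0.60). The count was 11 without neutron replicate 4. Against 4 Gy x-rays, 5 were lower (Mlh3, Exo1, Lig3, Ercc3 and Rad23b) and 3 higher (Ung, Cul4a and Apex2, a second AP endonuclease), beside 14.6% and 22.7% of all genes. Of the 6 neutron arrays, Mlh3 was well above background on 0 and Exo1 on 1. With normexp the signs of Mlh3 (1.11 and 1.05) and Lig3 (0.52 and 0.32) turned in both comparisons and those of Exo1 (0.60) and Ercc3 (0.032) in the second and of Cul4a (-0.27) in the first. With quantile normalization 0 were higher and 6 lower in the first of these comparisons, and with centring on the 75th percentile 3 were higher and 11 lower in the second. With spike-in centring 0 were higher and 22 lower in the first of these comparisons, and 0 higher and 28 lower in the second. Apex2 was then at -0.28 in place of 1.98 and Cul4a at -0.14 in place of 2.12 in the second. The shares of all genes given above are those of median centring, and spike-in centring moves all genes of an array together. Without the day 7 arrays rich in hepatocyte transcripts 4 genes were called in each.

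The effect of 1 Gy neutrons differed between days for 3 genes, with Ung and Cul4a higher on day 7 and Lig3 lower (-1.23 ± 0.25), beside 16.1% of all genes higher and 7.94% lower. With spike-in centring, which moves all genes of an array together, 1 was higher and 26 lower, and Ung turned to -0.94. The shares given are those of median centring. The call of Ung was lost without any 1 of 13 arrays (1.28 to 1.64), and with normexp Lig3 turned to 0.56. For 1 Gy x-rays Cul4a was the 1 gene called, higher, beside 5.05% higher and 2.14% lower of all genes. For 4 Gy x-rays 6 genes were higher on day 7 relative to day 1 and 0 lower (Exo1, Mutyh, Parp1, Parp2, Ercc1 and Cul4a), beside 11.3% and 8.45%. With quantile normalization 4 were higher and 1 lower.

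No repair gene was called after 0.25 Gy neutrons or on day 3. On day 1, 0 of 31 were called after 0.25 Gy neutrons beside 0.00621% of all genes, on day 3 0 beside 1.53%, and on day 7 0 beside 0.547%. After 1 Gy x-rays on day 3, 0 were called beside 1.55%. At an unadjusted p under 0.05 limma gave 3, 7, 8 and 3 repair genes in these comparisons. Of all genes, 16098 or in the last 16097, it gave 2474, 3871, 3691 and 3001. The random variance test called 0 repair genes in each. With spike-in centring 11 were lower after 0.25 Gy neutrons on day 7, and with scan date as a random block 2 were called after 1 Gy x-rays on day 3. The shares above do not apply to these 2 settings. Cul4a changed by -0.78 ± 0.28 on day 1, 1.00 ± 0.37 on day 3 and 0.89 ± 0.25 on day 7 after 0.25 Gy neutrons, none called.

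Of 47 further genes of the same pathways, 45 were tested. On day 1, 12 fell and 0 rose with neutrons of 1 Gy, beside 10.7% and 5.62% of all genes, 2 fell and 0 rose with x-rays of 1 Gy, beside 3.8% and 2.66%, and 15 fell and 3 rose with x-rays of 4 Gy, beside 16.6% and 12.8%. On day 7, 20 fell and 4 rose with neutrons, beside 17.8% and 18.4%, 1 fell and 2 rose with x-rays of 1 Gy, beside 1.1% and 2.64%, and 4 fell and 4 rose with x-rays of 4 Gy, beside 8.12% and 7.72%. Their median change was -0.44 after 1 Gy neutrons on day 1, -0.58 after 4 Gy x-rays on day 1 and -0.50 after 1 Gy neutrons on day 7.

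Promoters were read from RefSeq on build GRCm38.p6, as the 250 bases before the start of each gene, and 29 of the 33 genes had an entry. The E2F motif, bound by factors of cell division genes, was searched as TTTCCCGC, TTTGCCGC, TTTCGCGC and TTTGGCGC on both strands. It stood in promoters of 2 of the 29 genes (Msh3 and Nthl1), a share of 6.9%, and in 1.86% of all 32851 promoters. The promoter of Cul4a, shown because the gene was called in both directions, held none of these letters in the window chr8:13105373-13105622.
Cul4a, plus strand: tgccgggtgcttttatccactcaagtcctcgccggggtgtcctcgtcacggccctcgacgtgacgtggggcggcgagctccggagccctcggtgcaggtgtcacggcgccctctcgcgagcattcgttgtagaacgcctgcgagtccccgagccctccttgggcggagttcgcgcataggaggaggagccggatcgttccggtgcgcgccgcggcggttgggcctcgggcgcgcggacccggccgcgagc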

How the data were processed

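Blood RNA was hybridised to Agilent Mouse 4x44K v2 single-colour arrays. The deposited array files hold background-corrected intensity values per spot, made by the authors with Agilent Feature Extraction 12.0.2 (per the labels). A deposited table holds log2 normalized values for the whole series and served only as an alternative for 0.25 Gy neutrons on day 1, with the columns that follow their own array.

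Control spots and uneven spots were left out, the spots of a probe were replaced by their mean, and the median log2 value of the detected probes of an array was subtracted. A probe was detected when under 25% of the arrays of days 1 and 7 flagged it, and the brightest detected probe stood for a gene. Probes were named through RefSeq accessions, with the name in the file otherwise. The filter of a 1.5-fold difference was an alternative here, so that genes that moved little stayed counted. Groups were compared in limma 3.58.1 (R 4.3.3) with the arrays of the comparison alone, after the code was tested on simulated data, and p-values were adjusted by Benjamini-Hochberg over all genes. Each array is a separate mouse. The precision is set by the number of arrays.

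The members and lists were chosen with earlier results of these data known. Values per array are given for the 3 members of each pathway with the largest change among those called against controls on days 1 and 7, those called in both directions, and the called member with the smallest SE in each pathway. Ung, Lig3, Parp2, Smug1, Tdg, Apex2 and Ercc8 were described after their values were seen. Red cell, B cell, T cell, dividing cell and hepatocyte lists are reported here. NK cell, neutrophil, monocyte and platelet lists are given in the last part.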

Additional observations from a re-analysis of the deposited data

Results flagged for a closer look

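Within groups of 5 or 6 mice, 12 of 130 sets of values of the 10 genes given per array held a mouse far from the others. Chance gives about 1 in 20 for a single set. The 10 genes share their arrays, so the sets are not independent and the count cannot show an excess over chance. X-ray 1 Gy day 3 replicate 1 was low for Mutyh (-3.48, next -1.02), Parp1 (-1.18, next 0.87), Mlh3 (-5.49, next -3.22) and Msh3 (-0.73, next 0.66). Neutron 0.25 Gy day 1 replicate 5 was low for Mutyh (-2.37, next -0.87), Exo1 (-5.80, next -3.72) and Pms2 (-1.59, next -0.19). These arrays also held the lowest B cell list level of their groups, at 0.49 and -0.06, and the lowest T cell list level, at 1.53 and 1.33. The first had the highest platelet list level of its group (7.18), and the second the lowest NK cell level (-0.53) and the highest hepatocyte level (9.26). The part of these in the low values was not tested. Exo1 was high in X-ray 1 Gy day 7 replicate 5 (-0.14, next -2.99) and Control day 3 replicate 1 (-2.23, next -2.92). The first of these arrays had the highest dividing cell list level of its group (1.20, others -1.15 to -0.71) and the highest hepatocyte level (5.37), whose part was not tested. Neil1 was high in Neutron 1 Gy day 1 replicate 5 (0.51, next -0.12) and low in Neutron 1 Gy day 7 replicate 6 (-0.72, next -0.31), and Ercc4 was low in Control day 7 replicate 2 (0.50, next 0.94).

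The effect on day 7 minus the effect on day 1 passed the test for 10 pairs of a gene and an exposure. For 1 Gy neutrons they were Ung (1.504), Lig3 (-1.23) and Cul4a (4.81), and for 1 Gy x-rays Cul4a (3.75). For 4 Gy x-rays they were Exo1 (2.85, from day 1 arrays on which it was not well above background), Mutyh (1.26), Parp1 (1.09), Parp2 (1.46), Ercc1 (0.72) and Cul4a (3.03).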

How the results depend on the processing

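In what follows a number is the count of repair genes called unless named otherwise. No share of all genes is given beside these counts, and spike-in centring moves all genes of an array together with the repair genes. Slide as a random block, the hepatocyte level as a covariate and leaving out day 7 arrays rich in hepatocyte transcripts were chosen after seeing the data. Of 75 calls, 75 held with the random variance test, 74 with centring on the 75th percentile, 73 with the mean of all detected probes, 67 with slide as a random block, 62 with quantile normalization, 62 with no detection filter, 53 with the hepatocyte covariate, 39 with spike-in centring and 14 with normexp. Of those that could be fitted, 63 of 69 held with dim spots missing, 43 of 50 with the 1.5-fold filter, 20 of 51 with scan date as a fixed block and 24 of 38 without the hepatocyte-rich arrays. The precision is limited by the number of arrays and, after 1 Gy neutrons on day 7, by signals near background. The offset of 50 in normexp lies above the median signal of each array of that group (9.52 to 16.9). The cause of the other changes was not tested.

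Against controls, after 1 Gy neutrons on day 1 the count was 1 with spike-in centring, 2 with normexp, 5 with the 1.5-fold filter, 6 with scan date as a block and 6 with the hepatocyte covariate. On day 7 it was 27, 3, 6, 6 and 8 in that order. After 1 Gy x-rays on day 1 it was 2 with centring on the 75th percentile, quantile normalization or dim spots missing. On day 3 it was 2 with scan date as a random block, and on day 7 it was 0 with normexp and 1 with the 1.5-fold filter, the hepatocyte covariate or without hepatocyte-rich arrays. After 4 Gy x-rays on day 1 it was 5 with spike-in centring, 2 with normexp and 4 with the hepatocyte covariate, and on day 7 it was 0, 1 with normexp and 3 without hepatocyte-rich arrays. After 0.25 Gy neutrons on day 7 it was 11 with spike-in centring.

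Between 1 Gy neutrons and 1 Gy x-rays on day 1 it was 0 with spike-in centring, normexp or scan date as a block and 4 with the 1.5-fold filter. On day 7 it was 14 with the 75th percentile, 22 with spike-in centring, 19 with dim spots missing and 4 without hepatocyte-rich arrays. Against 4 Gy x-rays it was 6 on day 1 with slide as a random block. On day 7 it was 14, 28, 20 and 4 in the order above, 0 with normexp and 4 with scan date as a block. For the change between days it was 27 with spike-in centring, 1 with normexp and 13 with dim spots missing for 1 Gy neutrons, and 1 with normexp for 4 Gy x-rays.

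The replicate numbers were not taken as pairs of mice in the main fits. In 0 of 14 comparisons did every pair correlate over 0.1 (r from -0.53 to 0.64). With 5 or 6 pairs in each, some of them over 0.1, this cannot exclude pairing. With the replicate block 42 of 75 calls held. The count was then 3 and 8 after 1 Gy neutrons on days 1 and 7, 0 after 1 Gy x-rays on day 7, and 4 and 1 between neutrons and 1 Gy x-rays on days 1 and 7.

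Leaving out 1 array, the count against controls ran from 4 to 13 after 1 Gy neutrons, 1 to 2 after 1 Gy x-rays and 6 to 9 after 4 Gy x-rays on day 1, and from 10 to 15, 2 to 3 and 4 to 7 on day 7. Between neutrons and x-rays of 1 Gy it ran from 6 to 9 on day 1 and 5 to 11 on day 7, and against 4 Gy on day 7 from 8 to 11. For the change between days it ran from 2 to 4 for neutrons and 5 to 8 for 4 Gy x-rays. It stayed at 0 or 1 in the others.

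The median of the repair genes minus that of all genes, in log2, moved as follows. With the 1.5-fold filter it was -0.48 and -0.89 on day 1 for neutrons of 0.25 and 1 Gy, -0.21 and -1.21 for x-rays of 1 and 4 Gy, -0.26 on day 3 for 0.25 Gy neutrons, and -0.24, -1.02 and -0.18 on day 7 for 0.25 Gy neutrons, 1 Gy neutrons and 1 Gy x-rays. Between neutrons and x-rays it was -0.64 and 0.27 on day 1 and -0.98 and -0.44 on day 7 for 1 and 4 Gy, and it was 1.07 for the day change of 4 Gy x-rays. With no detection filter it was -0.27 and -0.26 on day 3 for neutrons and x-rays, -0.21, -1.43 and 0.15 on day 7 for 0.25 Gy neutrons, 1 Gy neutrons and 4 Gy x-rays, 0.28 between neutrons and 4 Gy x-rays on day 1, -1.36 and -1.47 on day 7 between neutrons and 1 or 4 Gy x-rays, and -0.88 and 0.66 for the day change of neutrons and 4 Gy x-rays. With normexp it was -0.0018 for 1 Gy x-rays on day 1, -0.29 for neutrons on day 7, -0.11 and -0.095 between neutrons and x-rays on day 7, and 0.056 for the day change of neutrons. With quantile normalization it was -0.39 for neutrons on day 7 and -0.25 against 4 Gy x-rays. With dim spots missing it was -0.63 and -0.45 between neutrons and x-rays on day 7, and with scan date as a block 0.27 between neutrons and 4 Gy x-rays on day 1. Leaving out 1 array, on day 1 it ran from -0.25 to -0.10 and -0.33 to -0.15 for neutrons of 0.25 and 1 Gy, and from -0.13 to -0.041 and -0.54 to -0.30 for x-rays of 1 and 4 Gy. On day 3 it ran from -0.15 to -0.097 for neutrons and -0.12 to -0.052 for x-rays. On day 7 it ran from -0.088 to -0.028 and -0.61 to -0.50 for neutrons, and from -0.069 to -0.0070 and -0.19 to -0.078 for x-rays. Between neutrons and x-rays of 1 and 4 Gy it ran from -0.27 to -0.15 and -0.086 to 0.088 on day 1, and from -0.56 to -0.46 and -0.38 to -0.31 on day 7. For the day change it ran from -0.18 to -0.080 for neutrons, and from -0.0233 to 0.13 and 0.093 to 0.28 for x-rays.

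Signs turned in 21 cases. With normexp, after 1 Gy neutrons on day 7 these were Ercc3 (0.17), Lig3 (0.26), Mlh3 (1.07), Parp2 (0.21), Smug1 (0.46) and Ung (-0.076), and after 4 Gy x-rays on day 1 Exo1 (0.39) and Mlh3 (0.15). Between neutrons and 1 Gy x-rays on day 7 these were Cul4a (-0.27), Lig3 (0.52) and Mlh3 (1.11), and against 4 Gy x-rays Ercc3 (0.032), Exo1 (0.60), Lig3 (0.32) and Mlh3 (1.05). The day change of Lig3 for neutrons turned to 0.56. With spike-in centring Ung turned after 1 Gy neutrons on day 7 (-0.66), in its day change (-0.94) and against 4 Gy x-rays (-0.997), as did Apex2 (-0.28) and Cul4a (-0.14) in the last.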

Other observations

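Lists of other blood cells had these levels, given with no test. The NK cell list had a median level of 1.56 in the controls of day 1 and 2.15 after 1 Gy neutrons, the monocyte list 3.55 and 3.49, the neutrophil list 4.67 and 4.96, and the platelet list 5.65 and 6.93. On day 7 the medians were 1.88 in the controls and 2.09 after 1 Gy neutrons for NK cells, 3.96 and 4.24 for monocytes, 4.05 and 5.31 for neutrophils, and 5.57 and 6.06 for platelets.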
